A study of Mus musculus with 6 samples.

Results

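The genes described here encode the elastic fibre and the microfibrils around it: elastin (Eln), the fibrillins (Fbn1, Fbn2), the fibulins (Fbln1, Fbln2, Fbln5), the microfibril-associated proteins (Mfap2, Mfap4, Mfap5) and lysyl oxidase (Lox). They were chosen by name, and the array row annotated to each gene was taken. Of the 10 genes, 9 had a row, out of 30176 genes tested. Fbn1 was not analysed here. Signals come from cells labelled hair follicle stem cells (HFSCs), which were isolated by flow cytometry for CD34 and α6-integrin after trypsin treatment of back skin. The mice were females of postnatal day (PD) 35. The WT group (3 arrays) carried floxed Dab2 alleles on both chromosomes and no Cre (K14CreER-/- Dab2 fl/fl). The Dab2-cKO group (3 arrays) carried the same alleles with an inducible Cre under the keratin 14 promoter (K14CreER+/- Dab2 fl/fl). Both groups were of the strain B6;129S4-Dab2tm1Cpr/J, and the study describes tamoxifen at 75 mg/kg on 5 consecutive days. The keratin 14 promoter is active in basal epithelium, so cells of the dermis were not the target of the deletion. By the study's histology, WT follicles were in anagen II, an early growth step, and Dab2-cKO follicles were in the resting phase, telogen. The hair cycle phase and the genotype can therefore not be told apart in these arrays. The labels call the arrays biological replicates, without saying whether animals were pooled.

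Elastic fibres give skin its recoil. Tropoelastin, the product of Eln, is laid onto a scaffold of fibrillin microfibrils with the help of fibulins and is then cross-linked by enzymes of the lysyl oxidase family. In skin these proteins are made mainly by dermal fibroblasts and, around vessels and the arrector pili muscle, by smooth muscle cells. Elastic fibres also tie the arrector pili muscle to the bulge, the part of the follicle where HFSCs reside. Microfibrils in addition hold transforming growth factor beta (TGF-β) in its latent form.

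The targeted gene ran against its label. Dab2 signal was 6.61, 6.49 and 6.46 log2 units in WT and 8.86, 8.76 and 8.94 in the arrays labelled Dab2-cKO, a difference of 2.34 ± 0.08 (SE), with an adjusted p of 1.34e-05. The study itself reports less Dab2 mRNA by qPCR in Dab2-cKO epidermis, taken at a later age, and deletion of Dab2 in the follicle by immunofluorescence. It is not known here which part of the transcript the row probes, nor whether the floxed part is covered. Every direction below is for the arrays labelled Dab2-cKO against those labelled WT.

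Markers of cells outside the follicle epithelium differed between the groups as well. All 11 fibroblast markers tested were higher in the arrays labelled Dab2-cKO, and the mean level of the list ran from 9.12 to 9.44 log2 units in WT and from 11.25 to 11.63 in Dab2-cKO. Dcn, the proteoglycan decorin, lay at 15.61 log2 units in WT and at 17.26 in Dab2-cKO, and Dpt, dermatopontin, at 13.81 and 18.21. Of the 11 smooth muscle and pericyte markers 7 were higher and none lower, with list levels of 6.80 to 6.99 in WT and 8.00 to 8.23 in Dab2-cKO. All 10 endothelial, 9 leukocyte, 6 skeletal muscle and 3 Schwann cell markers tested were higher. Skeletal muscle markers were bright in both groups, with list levels of 12.00 to 12.39 in WT and 14.77 to 14.94 in Dab2-cKO. The brightest of them, Tnnt3, lay at 16.12 log2 units in WT and at 19.20 in Dab2-cKO. Of the 5 adipocyte markers 3 were higher and 2 did not pass. All 7 hair shaft and inner root sheath markers were lower, from a list level of 16.80 to 17.22 in WT to 6.33 to 6.46 in Dab2-cKO. All 5 melanocyte markers were lower. Of the 8 basal keratinocyte markers 3 were higher and 1 lower, with list levels of 12.00 to 12.18 in WT and 12.12 to 12.53 in Dab2-cKO. Of the 8 HFSC markers 5 were higher and 3 lower, with list levels of 8.09 to 8.24 in WT and 8.44 to 8.57 in Dab2-cKO. Only 5 of the 8 lay above the background level defined below in a group, with 3 of them higher and 2 lower. The 3 lower ones among all 8 were Lgr5 (-1.63 log2 units), Sox9 (-1.04) and Lhx2 (-0.93). Krt5 and Krt14 lay at 17.02 and 15.64 log2 units in WT and at 17.41 and 16.60 in Dab2-cKO, and Krt15 and Cd34 at 14.72 and 9.55 in WT and at 15.75 and 12.00 in Dab2-cKO. In sorted bulk RNA, fewer cells of a type and less RNA per cell cannot be told apart. The part that cell composition had in the member results was not tested beyond the values given with them.

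Among the fibulins, Fbln2 and Fbln5 were called different in the deposited values and Fbln1 was not, and the region around a transcript start is shown for these 3 family members. The windows were taken from RefSeq (GRCm38.p6) and run from 250 bases before to 50 after a transcript start, with the gene's own strand 5′ to 3′. Capitals mark GC boxes, the letters GGGCGG on either strand. For a gene with 2 windows, the one with more GC boxes is shown. Fbln1 lies at chr15:85205758-85206057 (plus strand), Fbln2 at chr6:91212514-91212813 (plus strand) and Fbln5 at chr12:101819070-101819369 (minus strand).
Fbln1: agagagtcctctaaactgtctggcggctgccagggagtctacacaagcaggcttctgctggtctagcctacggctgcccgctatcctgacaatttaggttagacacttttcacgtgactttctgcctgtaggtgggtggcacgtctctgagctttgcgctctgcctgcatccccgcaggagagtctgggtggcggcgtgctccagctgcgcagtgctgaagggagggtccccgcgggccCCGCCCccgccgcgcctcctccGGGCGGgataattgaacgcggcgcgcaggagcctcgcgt
Fbln2: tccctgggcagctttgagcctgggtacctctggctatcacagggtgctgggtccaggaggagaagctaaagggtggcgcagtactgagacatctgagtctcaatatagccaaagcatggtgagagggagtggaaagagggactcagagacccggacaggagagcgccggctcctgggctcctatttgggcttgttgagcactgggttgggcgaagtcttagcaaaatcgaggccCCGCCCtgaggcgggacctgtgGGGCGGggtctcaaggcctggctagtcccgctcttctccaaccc
Fbln5: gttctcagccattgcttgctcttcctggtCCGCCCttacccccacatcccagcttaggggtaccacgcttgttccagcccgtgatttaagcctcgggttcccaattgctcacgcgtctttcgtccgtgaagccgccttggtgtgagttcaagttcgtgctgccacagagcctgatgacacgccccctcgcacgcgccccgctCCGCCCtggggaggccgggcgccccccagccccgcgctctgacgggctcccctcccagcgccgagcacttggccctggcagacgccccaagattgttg
Each of the 3 windows shown held 2 GC boxes. Their GC content was 64.0% for Fbln1, 60.3% for Fbln2 and 65.7% for Fbln5, against a median of 52.7% over 32851 windows of the same length. A GC box was found in 35.7% of those windows. The other window of Fbln1 and that of Fbln5 held none, and their GC content was 51.7% and 48.7%, below the median of all windows. For Fbln1 and Fbln5 the window shown was chosen by its GC boxes. Neither its GC box count nor its GC content is thus a like comparison with all windows or with Fbln2. Neither TATAAA nor TGANTCA, the letters of a TATA box and of an AP-1 site, was found on either strand of the windows of these genes, against 13.6% and 7.81% of all windows. A window was also matched for Mfap2, which held 2 GC boxes, and a second one for the same gene held none.

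Most elastic fibre and microfibril genes were higher in the arrays labelled Dab2-cKO. By limma over all genes, at an adjusted p under 0.05, 7 of the 9 members were higher (Eln, Fbln2, Fbln5, Mfap2, Mfap4, Mfap5 and Lox), Fbn2 was lower and Fbln1 did not pass. Their median difference was 1.56 log2 units, against -0.14 over all genes. The comparison called a large part of the array, with 50.8% of all genes past the threshold, 18.4% higher and 32.4% lower. The arrays of the groups did not overlap for 8 of the 9 members, as for 63.6% of all genes. The median SD over the members was 0.11 log2 units in WT and 0.15 in Dab2-cKO, close to the 0.12 and 0.13 over all genes.

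To judge which signals stood above background, 1525 receptor genes of the olfactory and vomeronasal epithelium were used, and the 95th percentile of their 6-array means was 7.28 log2 units. Of the 9 members 6 lay above it in at least 1 group, and Eln and Mfap5 did in both. Fbn2, Fbln1 and Lox lay below it in both groups, and no fold is given for them. The same percentile differed between the groups, at 8.18 log2 units from the WT arrays and 6.38 from the Dab2-cKO arrays. No member mean in WT reached the WT value, and 7 in Dab2-cKO reached the Dab2-cKO value. A fold against a group below the level was computed against that level and is written as at least that size.

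**Figure D1:**
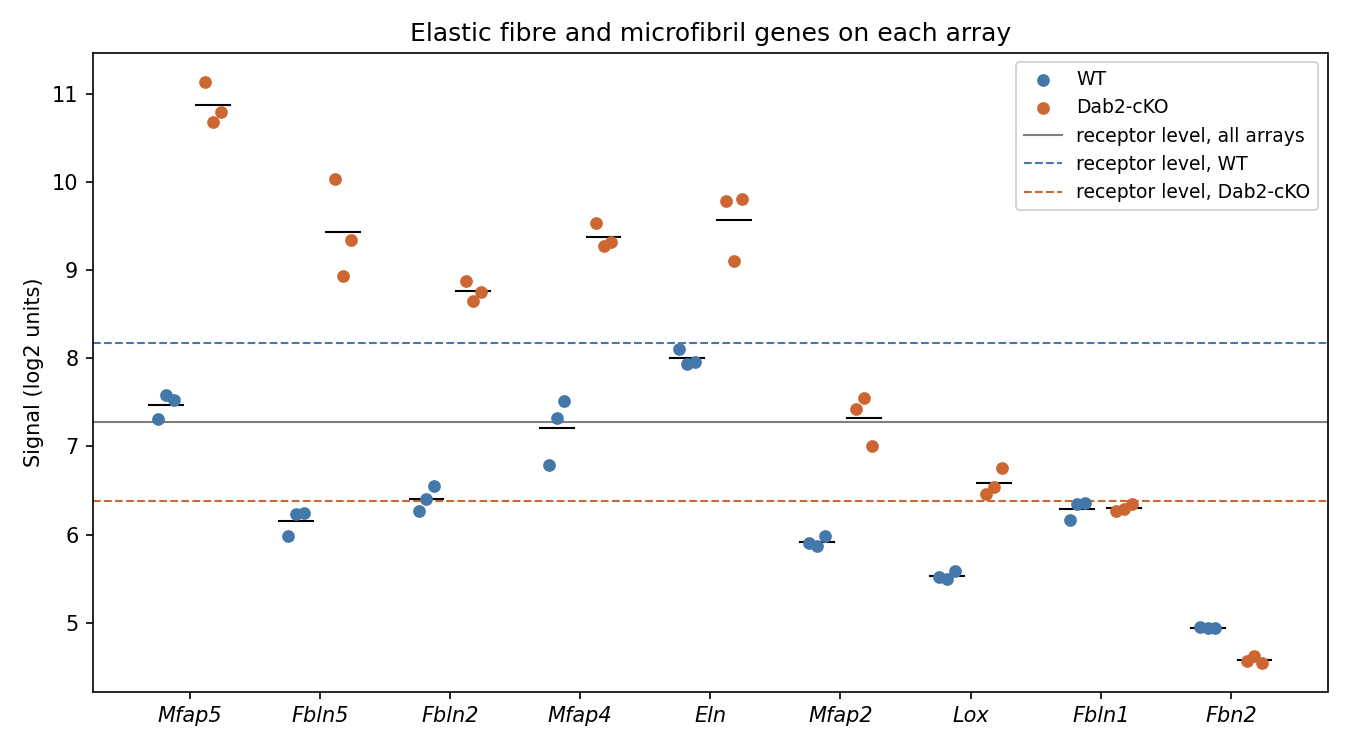
Signal of the 9 genes on each of the 6 arrays (vertical axis, log2 units), with 1 point per array, WT in blue and arrays labelled Dab2-cKO in orange, black bars for group means, and lines for the receptor gene level over all arrays (7.28), in WT (8.18) and in Dab2-cKO (6.38). The groups do not overlap for 8 genes, and they overlap for Fbln1.

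Elastin, the core of the fibre, was higher in the arrays labelled Dab2-cKO. Eln signal was 8.11, 7.93 and 7.96 log2 units in WT and 9.79, 9.10 and 9.81 in Dab2-cKO. All 3 Dab2-cKO arrays lay above the WT arrays, by a gap of 0.99 log2 units, and replicate 2 was the lowest of its group. The means were 8.00 ± 0.10 (SD, n = 3) and 9.57 ± 0.40 (SD, n = 3), a difference of 1.56 ± 0.20 (SE) or 2.96-fold, with an adjusted p of 0.00122 by limma. Set against the WT receptor level of 8.18, the fold is at least 2.62.

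The fibulins, which bind both tropoelastin and microfibrils and guide the deposition of elastin, were called higher for 2 of 3 genes. Fbln5, the fibulin that brings tropoelastin and the cross-linking enzymes together and that elastic fibre formation in mouse skin requires, had a signal of 5.98, 6.24 and 6.24 log2 units in WT and 10.04, 8.93 and 9.34 in Dab2-cKO. The groups lay 2.69 log2 units apart at their nearest arrays, and the Dab2-cKO arrays spread more than for any other member (SD 0.56). The difference was 3.28 ± 0.27 (SE), with an adjusted p of 0.000255, at least 4.46-fold, or at least 2.39-fold against the WT receptor level.

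Fbln2, a fibulin of elastic fibres and basement membranes, had a signal of 6.27, 6.40 and 6.56 log2 units in WT and 8.87, 8.65 and 8.76 in Dab2-cKO. Both groups were tight, with SDs of 0.14 and 0.11, and did not overlap. The difference was 2.35 ± 0.10 (SE), with an adjusted p of 2.91e-05, at least 2.795-fold, or at least 1.496-fold against the WT receptor level. Fbln1, a fibulin of basement membranes and elastic fibres, had a signal of 6.17, 6.35 and 6.36 log2 units in WT and 6.27, 6.29 and 6.35 in Dab2-cKO. Its groups overlapped, and the difference was 0.01 ± 0.08 (SE), with an adjusted p of 0.918. Both Fbln1 means were below the receptor level.

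Genes of a family were also set against each other within each array, for 7 pairs. Fbln5 minus Fbln2 changed by 0.93 ± 0.26 (SE) log2 units between the groups, and the arrays of the groups did not overlap. Both genes lay below the receptor level in WT, so the WT side of this pair is near background. How often pairs of any genes do not overlap was not computed. Pairs with Fbln1 are not given, since its signal lay below the receptor level in both groups and such a pair would restate the difference of the other gene. The two-sided exact permutation test used for the pairs has 20 splits with 3 against 3 arrays and cannot go below p = 0.1, which all 7 pairs reached. That test can thus not place a pair past 0.05, before or after adjustment over the 7 pairs.

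Among the microfibril genes, Mfap5, Mfap4 and Mfap2 were higher and the fibrillin Fbn2 was lower. Mfap5, or MAGP-2, a small glycoprotein that binds fibrillins, showed the largest difference of the 9 members. Its signal was 7.32, 7.59 and 7.52 log2 units in WT and 11.13, 10.68 and 10.79 in Dab2-cKO. The groups were 3.09 log2 units apart at their nearest arrays. The difference was 3.39 ± 0.14 (SE) or 10.5-fold (at least 6.46-fold against the WT receptor level), with an adjusted p of 2.28e-05, and it was above the differences of 99.6% of all genes.

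Mfap4, an extracellular glycoprotein that binds tropoelastin and fibrillin, had a signal of 6.79, 7.32 and 7.51 log2 units in WT and 9.53, 9.28 and 9.32 in Dab2-cKO. WT replicate 1 was the lowest of its group, and the groups did not overlap. The difference was 2.17 ± 0.19 (SE), with an adjusted p of 0.000323, at least 4.29-fold, or at least 2.298-fold against the WT receptor level. Mfap2, or MAGP-1, the other small fibrillin-binding glycoprotein, had a signal of 5.91, 5.87 and 5.99 log2 units in WT and 7.43, 7.55 and 7.00 in Dab2-cKO. The groups lay 1.02 log2 units apart, while the Dab2-cKO mean of 7.33 was hardly above the receptor level. Its difference was 1.41 ± 0.15 (SE), with an adjusted p of 0.000609, at least 1.04-fold. There is no bound against the WT receptor level, which the Dab2-cKO mean of Mfap2 did not reach.

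The difference of Mfap5 exceeded that of its paralog Mfap2 by 1.99 ± 0.23 (SE) log2 units and that of Mfap4 by 1.22 ± 0.16, and that of Mfap4 exceeded that of Mfap2 by 0.76 ± 0.27. Within-array differences of all 3 pairs did not overlap between the groups. In WT the means of all 3 genes lay below the WT receptor level of 8.18. Those of Mfap2 and Mfap4 also lay below the level of all arrays, so the WT side of these pairs is near background.

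Fbn2 encodes fibrillin-2, the fibrillin best known from development. Its signal was 4.95 log2 units on each WT array and 4.57, 4.62 and 4.55 in Dab2-cKO. All 3 Dab2-cKO arrays lay under WT, in a range far below the receptor level in both groups. The difference was -0.37 ± 0.06 (SE), with an adjusted p of 0.00437. The WT values differed by less than 0.001, so their SD of 0.0004 is not a biological spread. This call depended on how the arrays were scaled: the difference was -0.17 (adjusted p = 0.0845) with arrays centred on the median, -0.11 (adjusted p = 0.211) after quantile normalization. With arrays centred on the receptor genes it was 0.49 (adjusted p = 0.00328), a call in the opposite direction.

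Lysyl oxidase, which oxidises lysines of tropoelastin and collagens so that they cross-link, was dim. Lox signal was 5.52, 5.50 and 5.58 log2 units in WT and 6.46, 6.54 and 6.75 in Dab2-cKO. The groups lay 0.87 log2 units apart with both means under the receptor level of all arrays, and the Dab2-cKO mean of 6.58 just above the Dab2-cKO one. The difference was 1.05 ± 0.10 (SE), with an adjusted p of 0.00036. Its relative Loxl1, which is needed for elastic fibre upkeep in adult mouse tissue and binds fibulin-5, had a signal of 6.13, 6.25 and 6.56 log2 units in WT and 10.09, 9.75 and 9.86 in Dab2-cKO. Its difference of 3.59 ± 0.14 (SE), with an adjusted p of 1.96e-05, was at least 6.15-fold, or at least 3.29-fold against the WT receptor level. It exceeded the difference of Lox by 2.54 ± 0.19. As Lox lay below the receptor level in both groups, like Fbln1, this pair does not compare measured levels of both genes.

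Other scalings of the arrays were set beside the deposited values, since the all-gene median difference moved with them. It was -0.14 log2 units as deposited, 0.06 with arrays centred on the median, 0.04 after quantile normalization, 0.73 centred on the receptor genes, -0.50 centred on the positive control rows and -2.28 centred on the fibroblast markers. The 7 members that were higher stayed past the threshold in that direction under the median, quantile, receptor and positive control scalings. The median over the 9 members ran from 1.20 to 2.43 log2 units under these scalings. Fbln1 was called higher under the receptor scaling (0.87) and lower under the positive control scaling (-0.35). Fbn2 was called lower under the positive control scaling and higher under the receptor scaling, where all 9 members were called higher.

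**Figure D2:**
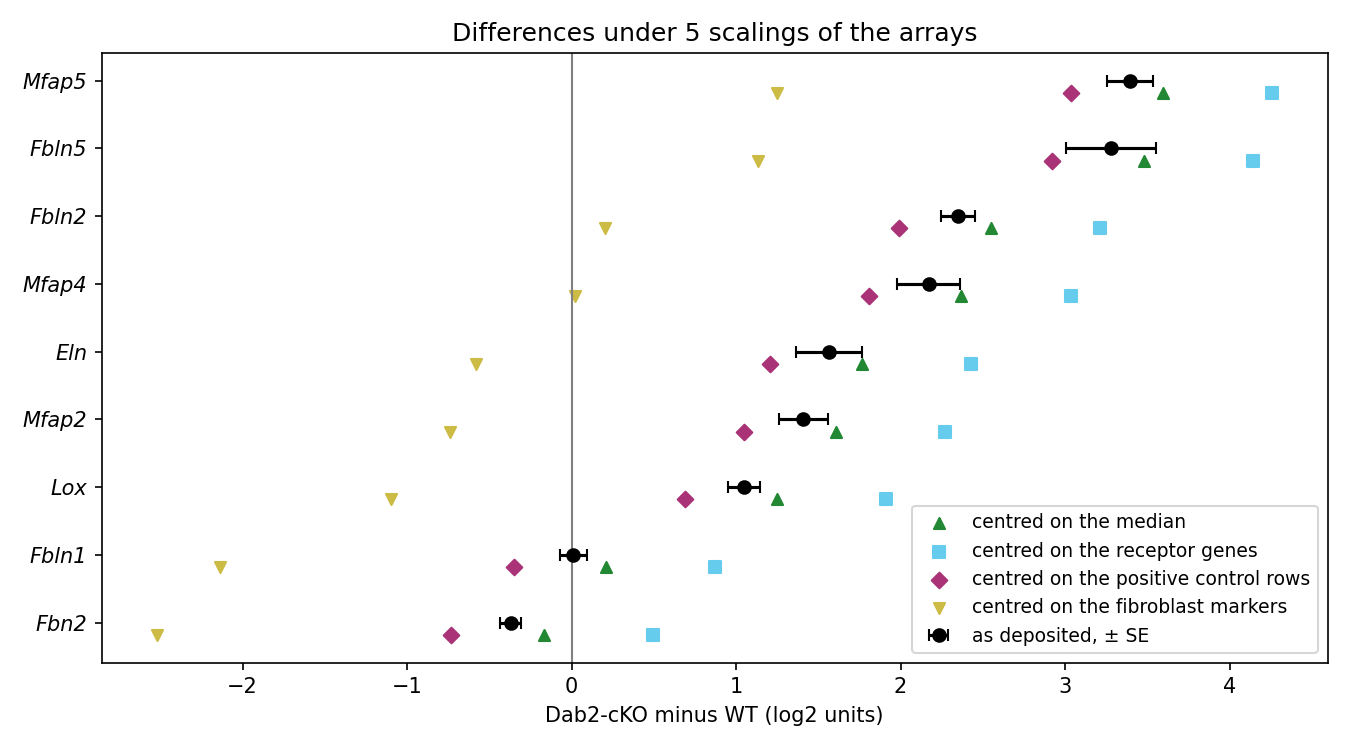
Difference between the arrays labelled Dab2-cKO and WT (horizontal axis, log2 units) for the 9 genes, with black points and SE bars for the deposited values and coloured marks for arrays centred on the median, the receptor genes, the positive control rows or the fibroblast markers. Mfap5 and Fbln5 stay above 0 under all 5, while Eln, Mfap2 and Lox fall below 0 relative to the fibroblast markers.

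Because fibroblasts are a main source of these proteins and their markers differed between the groups, each member was set against the mean of the 11 fibroblast markers of the same array. That mean itself differed by 2.148 log2 units. Relative to it, 2 members were still higher in all Dab2-cKO arrays than in any WT array. Mfap5 ran from -1.90 to -1.81 log2 units relative to the markers in WT and from -0.84 to -0.42 in Dab2-cKO, a difference of 1.25. Fbln5 ran from -3.20 to -3.14 in WT and from -2.33 to -1.51 in Dab2-cKO, a difference of 1.13. These 2 genes thus differed by more than the mean of the marker list, with the WT mean of Fbln5 below the receptor level. Of the 11 markers, 8 lay above the receptor level in a group. Thy1, Twist2 and Col6a2 lay below it in both groups, and their differences of 0.72, 1.05 and 0.75 log2 units lower the marker mean. Of the brighter markers, Dpt (4.40) differed by more than both genes and Col3a1 (3.36) by more than Fbln5 alone. The rest differed by less than either gene. Whether the 2 genes also exceed the mean of the brighter markers was not tested.

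Fbln2 and Mfap4 overlapped between the groups on this scale, with differences of 0.20 and 0.02 log2 units. The remaining 5 members lay lower in every Dab2-cKO array than in WT, at -0.58 for Eln, -0.74 for Mfap2, -1.10 for Lox, -2.14 for Fbln1 and -2.52 for Fbn2. On this scale limma called 29326 of all 30176 genes lower and 294 higher, so a lower value is what most genes showed. For Eln the ranges were -1.51 to -1.01 in WT and -2.15 to -1.76 in Dab2-cKO. Values of the 3 dim members on this scale mostly carry the marker mean, as their own signals lay below the receptor level. The WT means of Fbln2, Fbln5, Mfap2 and Mfap4 also lay below that level, so the WT side of their values is near background. No member mean in WT reached the WT receptor level. The markers differed among themselves from 0.72 (Thy1) to 4.40 log2 units (Dpt), a range that holds the differences of all members but Fbn2 and Fbln1.

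**Figure D3:**
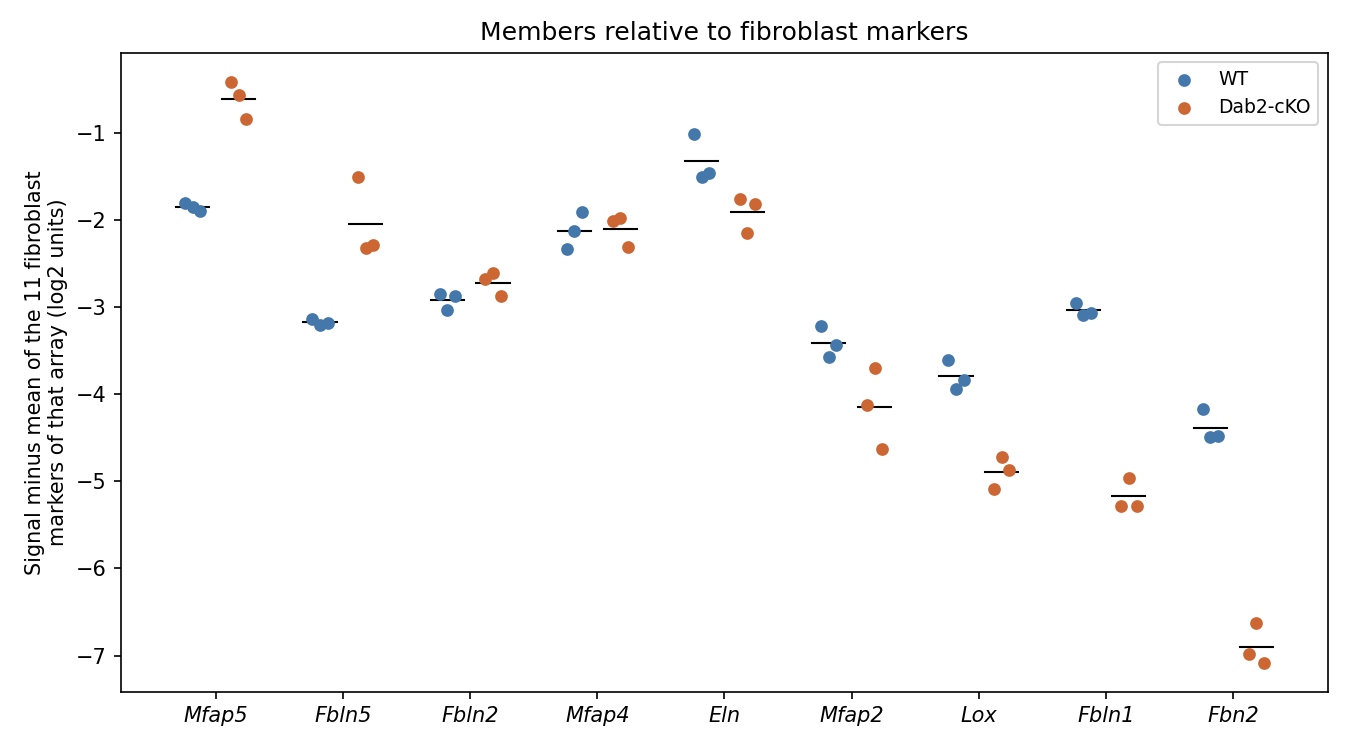
Signal of each of the 9 genes minus the mean of the 11 fibroblast markers on the same array (vertical axis, log2 units), with 1 point per array, WT in blue, arrays labelled Dab2-cKO in orange and black bars for group means. Mfap5 and Fbln5 lie higher in Dab2-cKO, Fbln2 and Mfap4 overlap, and the other 5 lie lower. On this scale 29326 of all 30176 genes were called lower.

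Genes that act with the members were taken from a list of 59, of which 54 were tested. Of these 35 were higher in the arrays labelled Dab2-cKO, 8 were lower and 11 did not pass, with a median difference of 0.46 log2 units. Over all genes 18.4% were higher and 32.4% lower. The counts of higher and lower related genes were 42 and 1 with arrays centred on the median, 41 and 4 after quantile normalization, 51 and 0 relative to the receptor genes, 21 and 11 relative to the positive control rows and 4 and 45 relative to the fibroblast markers. Calls below are those of the deposited values. In 31 of the 54 genes both groups lay below the receptor level.

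Among the 3 other fibulins and fibulin-like genes tested, 1 was higher, 1 lower and 1 did not pass. Efemp1, or fibulin-3, was higher by 1.42 ± 0.18 (SE) log2 units, 2.68-fold. Efemp2, or fibulin-4, was not analysed here. Of 9 other microfibril and elastic fibre associated genes, 6 were higher and none lower as deposited. On the positive control rows 3 were higher and 1 lower, and only 2 of the 9 lay above the receptor level in a group. The largest differences were those of 2 multimerins, proteins related to the emilins and made by endothelium, with Mmrn2 at 2.18 ± 0.13 (SE) log2 units (at least 2.61-fold, or 1.396-fold against the WT receptor level) and Mmrn1 at 1.70 ± 0.17 (at least 2.11-fold, or 1.13-fold).

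Latent TGF-β binding proteins attach latent TGF-β to fibrillin microfibrils. Of the 4 binding proteins 3 were higher and 1 lower, and all 3 TGF-β ligands were higher. Tgfb1, Tgfb2 and Ltbp2 lay below the receptor level in both groups. On the positive control rows Tgfb1 (0.295, adjusted p = 0.0758) and Ltbp2 (-0.06, adjusted p = 0.737) did not pass by limma, while Tgfb2 stayed higher (1.64). Tgfb3, a TGF-β ligand, rose from 6.64 to 9.04 log2 units, a difference of 2.40 ± 0.17 (SE), at least 3.40-fold, or at least 1.82-fold against the WT receptor level. Ltbp1 rose by 1.66 ± 0.08 (at least 1.635-fold, with no bound against the WT receptor level, which its Dab2-cKO mean did not reach) and Ltbp4, which takes part in elastic fibre assembly through fibulin-5, by 0.83 ± 0.11 (1.78-fold, or at least 1.17-fold against the WT receptor level). Ltbp3 was called lower, at -0.56 log2 units, but not with arrays centred on the median (-0.36, adjusted p = 0.0557) or on the receptor genes (0.30, adjusted p = 0.0916). ADAMTS and ADAMTS-like proteins bind or cut microfibril proteins. Of the 6 tested, 4 were higher and 1 lower, and all lay below the receptor level, the largest difference being that of Adamtsl5 (0.50 ± 0.08, adjusted p = 0.00259 by limma), which was 0.14 (adjusted p = 0.363) on the positive control rows.

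Of the 8 cross-linking enzymes and their activators tested, 5 were higher and 1 lower. Beside Loxl1, Fn1 (fibronectin, which supports the activation of lysyl oxidase) rose by 1.39 ± 0.16 (SE) log2 units, 2.62-fold, and Postn (periostin, which links Bmp1 to its matrix substrates) by 1.15 ± 0.23, 2.22-fold. The gene called lower was Atp7a, the copper transporter that loads lysyl oxidases, at -0.83 log2 units, but it was 0.04 (adjusted p = 0.822) with arrays centred on the receptor genes. Of 8 integrin chains 5 were higher and 1 lower. The named ones were Itga5 (1.38 ± 0.10, at least 1.295-fold, with no bound against the WT receptor level), Itgb5 (1.23 ± 0.25, 2.34-fold) and Itgb1 (0.97 ± 0.07, 1.96-fold). Integrins of these chains bind fibronectin, vitronectin and RGD sites of fibrillins and fibulins, and the product of Itgb1 can also pair with the α6 chain used for the sort.

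Proteases that can degrade elastin were higher for 5 of 7 genes, with 1 lower. Mmp2, or gelatinase A, rose from 6.80 to 9.92 log2 units, by 3.11 ± 0.14 (SE), at least 6.23-fold, or at least 3.335-fold against the WT receptor level. Ctsk, cathepsin K, rose by 2.77 ± 0.11 (at least 4.26-fold, or 2.28-fold) and Ctss, cathepsin S, a protease of leukocytes, by 2.20 ± 0.14 (at least 3.03-fold, or 1.62-fold). All 9 leukocyte markers tested were higher too, from a list level of 6.41 to 6.59 log2 units in WT to 9.61 to 9.75 in Dab2-cKO. Ctsl, cathepsin L, was called lower, at -0.48, but not with arrays centred on the median (-0.28, adjusted p = 0.15), after quantile normalization (-0.37, adjusted p = 0.0819) or with arrays centred on the receptor genes (0.38, adjusted p = 0.0604).

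Of 6 matrix partners of elastic fibres, 3 were higher and 2 lower. Tnxb, or tenascin-X, whose loss in humans gives lax skin with altered elastic fibres, rose from 6.36 to 9.90 log2 units, by 3.53 ± 0.17 (SE), at least 6.16-fold, or at least 3.296-fold against the WT receptor level. Bgn, biglycan, rose from 12.10 to 14.17, by 2.08 ± 0.25, 4.22-fold, and Hspg2, perlecan, by 1.38 ± 0.14, 2.60-fold, or at least 1.81-fold against the WT receptor level. Vcan, versican, which binds fibrillin and fibulins, was called lower, at -0.41, but was -0.21 (adjusted p = 0.0994) with arrays centred on the median and was called higher, at 0.45 (adjusted p = 0.0101), with arrays centred on the receptor genes. The differences of Loxl1, Tnxb and Mmp2 were of the size of those of Mfap5 and Fbln5.

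**Figure D4:**
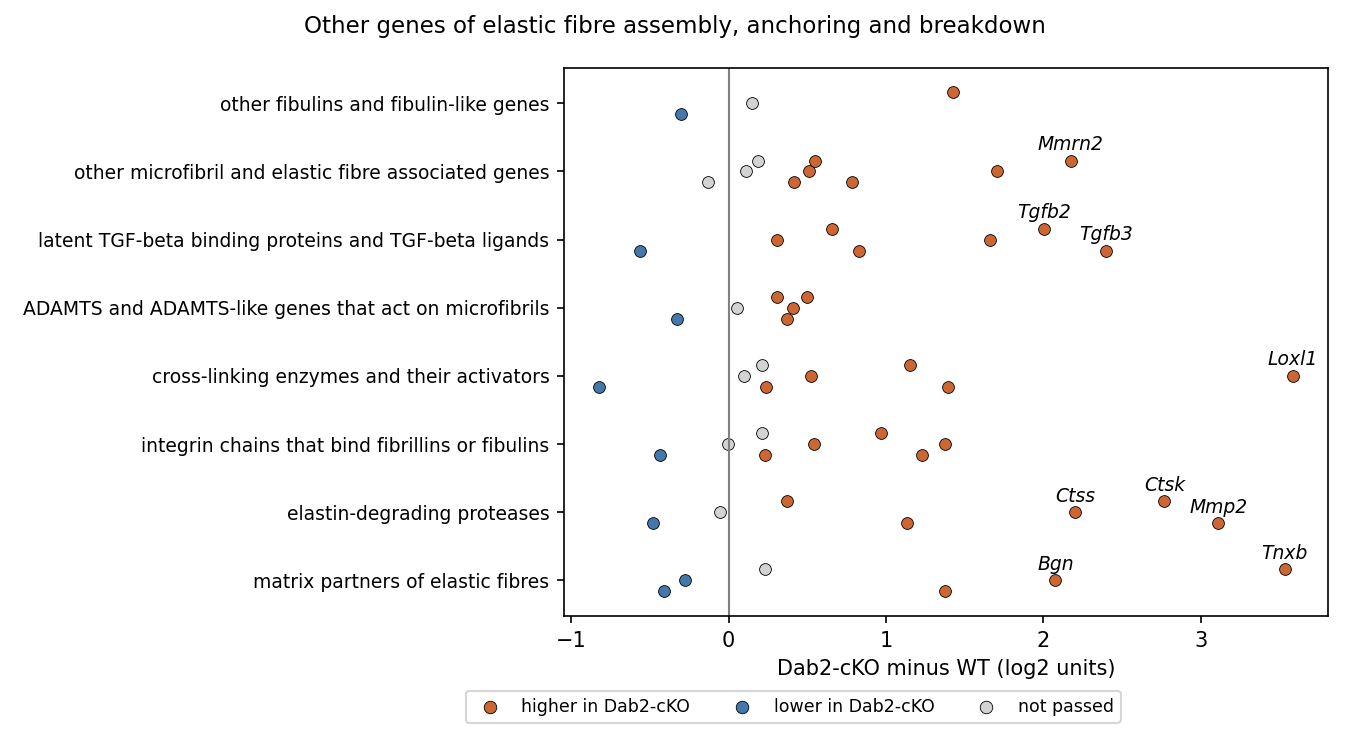
Difference between the arrays labelled Dab2-cKO and WT (horizontal axis, log2 units) for the 54 other genes of elastic fibre assembly, anchoring and breakdown, with 1 point per gene in rows by role and colour for the limma call at an adjusted p under 0.05. Of the points 35 are called higher, 8 lower and 11 not, and Loxl1, Tnxb and Mmp2 lie farthest to the right.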

How the data were processed

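From 1 ng of RNA, complementary DNA was made with a Pico amplification kit and measured on Affymetrix mouse transcriptome arrays. The authors deposited log2 signals made with RMA in Affymetrix Expression Console (submitters' processing notes, no versions). RMA equalises probe distributions between arrays, so total RNA per cell is not visible. A genome build and detection calls are not given in the sources used here. The number of arrays (3 per group) limits precision.

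Of 72688 rows, 6732 control rows were set aside. Of the remaining 65956 rows, 30638 named 1 gene, 2176 several and 33142 none, which gave 30176 genes, of which 29849 stand in the RefSeq gene table (GRCm38.p6). For the 354 genes with several rows, the row with the highest mean was taken. Each of the 9 members had 1 row, none at the signal ceiling of 19.93. Of the promoter windows, those of 5 members matched by symbol.

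Groups were compared with limma (3.58.1, R 4.3.3; lmFit and eBayes, no covariate), with two-sided p-values adjusted by Benjamini-Hochberg over all genes and a threshold of 0.05, and the fit was tested on simulated data. Text names all members, Dab2, up to 3 genes per role list, ranked by absolute difference, that passed the threshold and lay above the receptor level in a group (else 1 gene), and up to 2 markers per cell type list by mean. Ltbp2, Ltbp3, Tgfb1, Tgfb2, Atp7a, Ctsl, Vcan, Thy1, Twist2, Col3a1, Col6a2, Lgr5, Sox9 and Lhx2 were named after their values were seen. The members and lists were chosen with earlier results of these data known. Alternatives were other scalings (the positive control rows added after seeing the data), other tests, filters, and arrays left out in turn.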

Additional observations from a re-analysis of the deposited data

How the results depend on the processing

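Where they were tested, the 7 members called higher stayed so under every alternative except centring on the fibroblast markers, where 2 were higher and 5 lower: Fbln2 (0.20, adjusted p = 0.358) and Mfap4 (0.02, adjusted p = 0.919) were no longer past the threshold and Eln (-0.58), Mfap2 (-0.74) and Lox (-1.10) changed sign, as did Fbln1 (-2.14). That centring adds the same marker noise to every gene of an array, so its adjusted p-values are not independent between genes. With only the 7394 genes above the receptor level tested, 5 members were left in the test and 0 were lower. Fbn2 was 0.49 (adjusted p = 0.00328, higher) under receptor centring. The count of members called lower, 1 as deposited, was 0 under median, receptor and quantile scaling and 2 on positive control rows (added after seeing the data). Fbln1 was -0.35 on positive control rows, -0.05 to 0.0436 with each array left out in turn (-0.05 without WT replicate 1, -0.01 without Dab2-cKO replicate 3) and 0.87 (past the threshold) under receptor centring.

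Over all genes, 5557 were higher as deposited, 294 on fibroblast markers, 8421 on the median, 2848 on positive control rows, 23065 on receptor genes and 2402 among genes above the receptor level. The counts of lower genes were 9775, 29326, 6035, 19016, 2162 and 2348 in the same order, and 6352 after quantile normalization. Of the 54 related genes, 35 were higher as deposited, 4 on fibroblast markers, 21 on positive control rows and 17 of 20 above the receptor level. The 8 lower became 45 on fibroblast markers, 1 on the median, 0 on receptor genes, 4 after quantile normalization and 3 above the receptor level. With each array left out in turn the 8 lower became 5 to 6, and 5 without Dab2-cKO replicate 1 or WT replicate 2. The receptor level was 9.34 at the 99th percentile, with 4 members above it in a group and 0 in both.

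Same-numbered arrays of the groups did not deviate together (correlations of -0.08, -0.22 and -0.02). With the replicate number as a block, 7 members were higher and 1 lower, and 5 related genes were lower in place of 8. By the methods' t-test 7 members were higher and 1 lower, before and after adjustment.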
